A study of Rattus norvegicus with 20 samples.

Results

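The genes described here encode the pyruvate dehydrogenase complex and enzymes of the citric acid cycle in the ventral hippocampus of the rat. The names chosen were Dlat, Pdha1, Pdhb and Dld for the complex, and Cs, Idh3a, Ogdh, Mdh2 and Fh for the cycle. A gene was taken where a probe set of the array carried its symbol and no other, and its probe set was selected on mean brightness, taking the brightest over the 20 arrays. Brightness says nothing of the groups and is no result. Of the 9 names, 8 had such a probe set, out of 22093 genes covered in the same way, and all 8 were among the 15465 genes bright enough to be tested. Fh was not analysed here. Each of the 8 genes had 1 such probe set, so no second probe set could be set beside it.

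The pyruvate dehydrogenase complex sits in the mitochondrial matrix and turns pyruvate, the end product of glycolysis, into acetyl-CoA. The citric acid cycle oxidises the acetyl group and hands electrons to the respiratory chain, which makes most of the ATP that neurons spend on synaptic transmission. All of these proteins are encoded in the nucleus, and mitochondria lie at many synaptic endings.

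The arrays measured RNA from adult male Sprague-Dawley rats that received, at the age of 2 months, an injection into the ventral hippocampus on both sides. Mimic rats received 200 pmol of a synthetic mimic of miR-17-5p in 1.5 µl of water, and control rats received a scrambled small RNA with no target mRNA. RNA came either from synaptoneurosomes, a preparation enriched in pinched-off synaptic endings, or from the whole homogenate. The groups were synaptoneurosome mimic, synaptoneurosome control, homogenate mimic and homogenate control, with 5 arrays each. Each condition had 11 to 13 animals, but the labels do not tie an array to an animal, so a p-value here speaks of the spread among these arrays, which may be technical. All rats had surgery and an injected RNA, and the time between injection and tissue collection is not given in the sources used here. RNA of the homogenate was purified on columns and RNA of the synaptoneurosomes by alcohol precipitation, so the fraction and the way its RNA was purified cannot be told apart.

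The sequence of the injected mimic is not given in the sources used here. It is named after the natural rat microRNA, whose mature sequence in RefSeq (build GRCr8, chr15:98587861-98587883, plus strand) is printed to show the bases by which a microRNA chiefly recognises its targets. Capitals mark the seed, bases 2 to 8 from the 5′ end.
rno-miR-17-5p: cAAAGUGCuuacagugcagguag

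Levels are the deposited log2 values, on which a difference of 1 is a doubling, and a gene's value is compared between arrays; across genes it serves only to place a gene among dim or bright ones, since brightness also depends on the probes. Array medians lay between 5.11 and 5.26. Neuronal markers were read on all arrays, but none was used to tell the hippocampus from other brain regions. The mean of 7 markers of excitatory neurons lay between 12.09 and 12.71 in the synaptoneurosome arrays and between 12.74 and 13.05 in the homogenate arrays. Of these 7, 1 rose and 3 fell in synaptoneurosomes under each treatment, by limma at an adjusted p below 0.05. The mean of 7 markers of endothelial cells lay between 6.04 and 6.50 in synaptoneurosomes and between 8.03 and 8.48 in homogenate, and the mean of 8 astrocyte markers lay between 11.73 and 12.24 in synaptoneurosomes and between 11.42 and 11.83 in homogenate. Synaptoneurosome mimic 5, synaptoneurosome control 4 and synaptoneurosome control 5 stood apart from the other 17 arrays on the main axis of variation within groups, which held 52.2% of that variation. Their means of 8 interneuron markers were 10.19, 10.21 and 10.72, against 8.56 to 9.02 in the other 7 synaptoneurosome arrays. Their means of the 7 excitatory neuron markers, 12.50 to 12.71, lay just above the 12.09 to 12.49 of the other 7. For 8 microglial markers they were 8.82 to 9.19, against 8.33 to 8.92. Their astrocyte, oligodendrocyte, endothelial and mural means overlapped those of the other 7. Mimic 5 also had a mean of 8 choroid plexus markers of 7.73 in synaptoneurosomes and 7.61 in homogenate, with no other array above 5.54. The part of these differences in the results below was not tested, and differences of the 8 genes and counts that move by over 1.5 times or change their call without the 3 arrays are given both ways.

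The 8 genes lay among the brighter genes of the array, with means over the 20 arrays between the 83.4th and 98.2nd percentile of all genes. The main difference was between the fractions. In mimic rats, 7 of the 8 genes fell in synaptoneurosomes relative to homogenate and none rose, by limma at an adjusted p below 0.05, where 30.8% of all tested genes fell and 11.0% rose. In control rats, 4 of the 8 fell and none rose, where 28.0% of all tested genes fell and 11.8% rose. Among the 3663 genes at least as bright as the dimmest of the 8, 34.1% fell in mimic rats and 31.8% in control rats. The median log2 difference of the 8 genes was -0.60 in mimic rats, against -0.08 over all tested genes, and -0.37 in control rats, against -0.06 over all tested genes. These counts and medians describe genes that were put together because they belong to a pathway, with earlier results of these same data known. They are not a test of the pathway. In such preparations, fewer endings or cells of a kind and less of an RNA in each cannot be told apart.

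**Figure D1:**
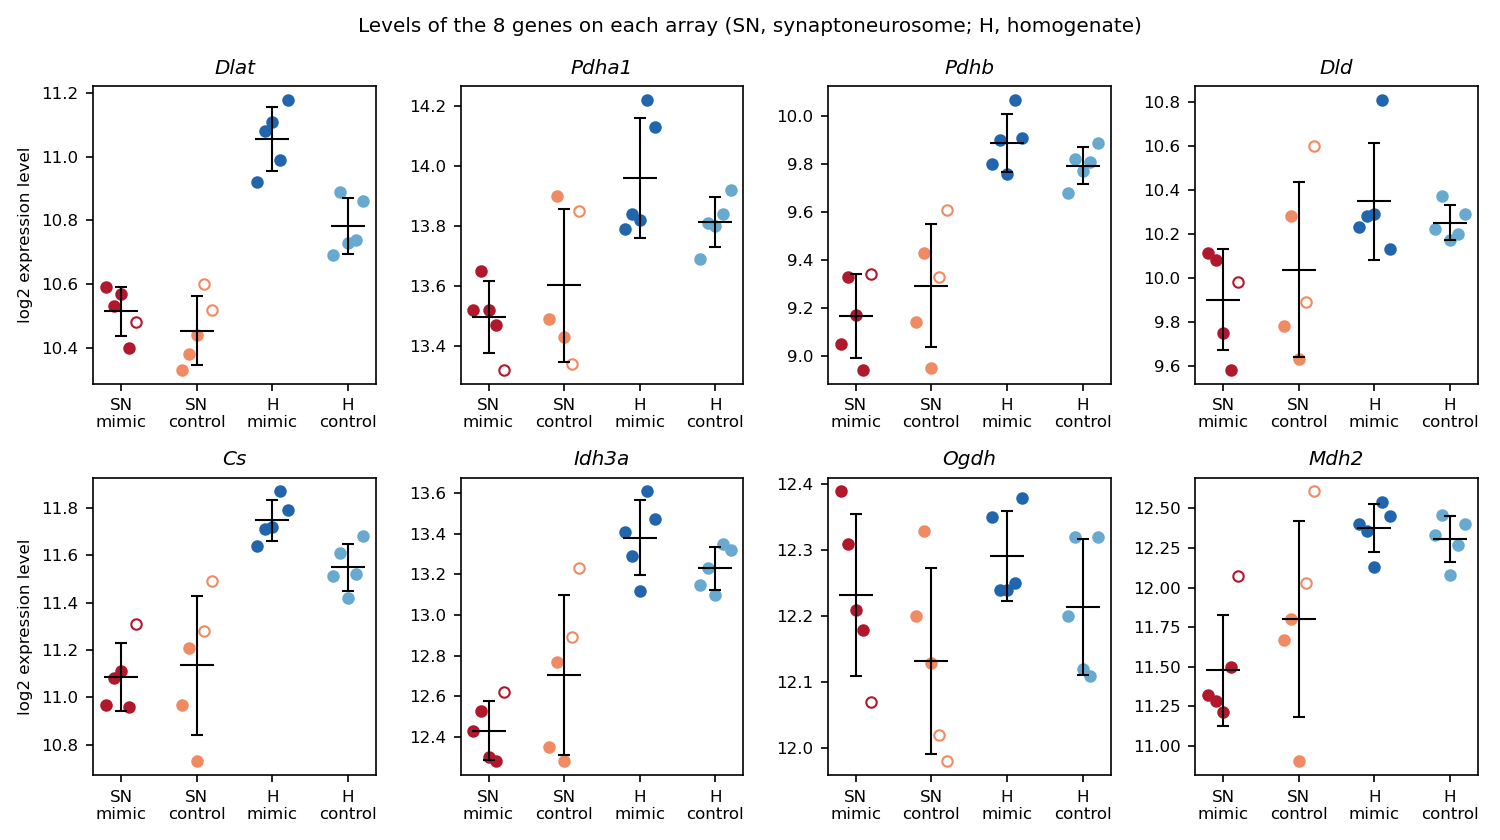
Log2 expression level (vertical axis, each panel with its own range) of the 8 genes on each of the 20 arrays, in the order synaptoneurosome (SN) mimic, SN control, homogenate (H) mimic, H control; points are arrays, open points the 3 arrays that stood apart, and bars the mean ± SD (n = 5). In mimic rats the homogenate points of all genes but Ogdh lie above the synaptoneurosome points, and in control rats those of Dlat and Pdhb do. The points of Ogdh overlap in all groups, and Mdh2 spreads widely in synaptoneurosome control arrays, 10.90 to 12.61.

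Dlat encodes the acetyltransferase core (E2) of the pyruvate dehydrogenase complex. Its log2 levels were 10.59, 10.53, 10.57, 10.40 and 10.48 in synaptoneurosome mimic arrays, against 10.92, 11.08, 11.11, 10.99 and 11.18 in homogenate mimic arrays. They were 10.33, 10.38, 10.44, 10.60 and 10.52 in synaptoneurosome control arrays, against 10.69, 10.89, 10.73, 10.74 and 10.86 in homogenate control arrays. Every synaptoneurosome array lay below every homogenate array. Dlat fell in mimic rats by 0.54 ± 0.07 on the log2 scale (limma, adjusted p = 4.48e-06), to 68.7% of the homogenate level, and in control rats by 0.33 ± 0.07 (limma, adjusted p = 0.000737), to 79.7%. The error printed after a log2 difference is its standard error in limma.

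Pdha1 and Pdhb encode the α and β subunits of the decarboxylase (E1), of which the α subunit carries the phosphorylation sites that switch the complex off. Pdhb had log2 levels of 9.05, 9.33, 9.17, 8.94 and 9.34 in synaptoneurosome mimic arrays, against 9.80, 9.90, 9.76, 10.07 and 9.91 in homogenate mimic arrays. It had 9.14, 9.43, 8.95, 9.33 and 9.61 in synaptoneurosome control arrays, against 9.68, 9.82, 9.77, 9.81 and 9.89 in homogenate control arrays. The fractions did not overlap under either treatment. Pdhb fell by 0.72 ± 0.11 in mimic rats (limma, adjusted p = 3.29e-05) and by 0.50 ± 0.11 in control rats (limma, adjusted p = 0.00113). Pdha1 lay between 13.32 and 13.65 in synaptoneurosome mimic arrays, all below the 13.79 to 14.22 of homogenate mimic arrays, and fell by 0.46 ± 0.11 (limma, adjusted p = 0.00242). In control rats its range of 13.34 to 13.90 in synaptoneurosomes overlapped the 13.69 to 13.92 of homogenate, and the difference of -0.21 ± 0.11 missed the threshold (limma, adjusted p = 0.136). Without synaptoneurosome control 2, at 13.90 the highest of its group, the difference was -0.28 (limma, adjusted p = 0.0428), while after quantile normalisation it was -0.10 (limma, adjusted p = 0.558).

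Dld encodes dihydrolipoamide dehydrogenase (E3), the subunit that this complex shares with the 2-oxoglutarate dehydrogenase complex. Its log2 levels were 10.11, 10.08, 9.75, 9.58 and 9.98 in synaptoneurosome mimic arrays, against 10.23, 10.28, 10.29, 10.81 and 10.13 in homogenate mimic arrays. The groups did not overlap, but synaptoneurosome mimic 1 and homogenate mimic 5 were only 0.02 apart. Dld fell by 0.45 ± 0.16 in mimic rats (limma, adjusted p = 0.0322). Its call was lost without homogenate mimic 4 (difference -0.33, adjusted p = 0.104), without synaptoneurosome mimic 3 (-0.41, adjusted p = 0.0709), without synaptoneurosome mimic 4 (-0.37, adjusted p = 0.0929) and after quantile normalisation (-0.31, adjusted p = 0.118), all by limma. In control rats the groups overlapped, at 9.63 to 10.60 in synaptoneurosomes and 10.17 to 10.37 in homogenate, and the difference was -0.21 ± 0.16 (limma, adjusted p = 0.301). It was -0.11 without synaptoneurosome control 3 and after quantile normalisation, -0.36 without synaptoneurosome control 5 and -0.35 without the 3 arrays that stood apart, and passed in none of these.

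Cs encodes citrate synthase, which joins acetyl-CoA to oxaloacetate in the opening step of the cycle. Its log2 levels were 10.97, 11.08, 11.11, 10.96 and 11.31 in synaptoneurosome mimic arrays, against 11.64, 11.71, 11.72, 11.87 and 11.79 in homogenate mimic arrays. They were 10.97, 11.21, 10.73, 11.28 and 11.49 in synaptoneurosome control arrays, against 11.51, 11.61, 11.42, 11.52 and 11.68 in homogenate control arrays. The fractions were apart in mimic rats, and in control rats synaptoneurosome array 5 reached into the homogenate range. Cs fell by 0.66 ± 0.11 in mimic rats (limma, adjusted p = 0.000104) and by 0.41 ± 0.11 in control rats (limma, adjusted p = 0.00609).

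Idh3a encodes the catalytic α subunit of the NAD-dependent isocitrate dehydrogenase, a regulated step of the cycle. Its log2 levels were 12.43, 12.53, 12.30, 12.28 and 12.62 in synaptoneurosome mimic arrays, against 13.41, 13.29, 13.12, 13.61 and 13.47 in homogenate mimic arrays. They were 12.35, 12.77, 12.28, 12.89 and 13.23 in synaptoneurosome control arrays, against 13.15, 13.23, 13.10, 13.35 and 13.32 in homogenate control arrays. Idh3a was low in every synaptoneurosome mimic array, and in the control rats synaptoneurosome array 5 lay within the homogenate range. In mimic rats it fell by 0.95 ± 0.14 (limma, adjusted p = 4.16e-05) to 51.8% of the homogenate level. Its difference there was near that of Mdh2, below, and their order turned without the 3 arrays that stood apart, at -0.995 for Idh3a and -1.05 for Mdh2. In control rats it fell by 0.53 ± 0.14 (limma, adjusted p = 0.00718).

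Mdh2 encodes the mitochondrial malate dehydrogenase, which closes the cycle and also serves the malate-aspartate shuttle. Its log2 levels were 11.32, 11.28, 11.21, 11.50 and 12.07 in synaptoneurosome mimic arrays, against 12.40, 12.36, 12.13, 12.54 and 12.45 in homogenate mimic arrays. They were 11.67, 11.80, 10.90, 12.03 and 12.61 in synaptoneurosome control arrays, against 12.33, 12.46, 12.08, 12.27 and 12.40 in homogenate control arrays. Synaptoneurosome control 5 was the highest of all 20 arrays and synaptoneurosome control 3 the lowest. Mdh2 fell by 0.90 ± 0.22 in mimic rats (limma, adjusted p = 0.00309). In control rats the difference of -0.51 ± 0.22 missed the threshold (limma, adjusted p = 0.0756), and with the same-numbered fractions as a replicate block it passed, with adjusted p = 0.0331 in limma. The value in control rats rested on single arrays: without synaptoneurosome control 3 it was -0.28 (limma, adjusted p = 0.222) and without synaptoneurosome control 5 it was -0.71 (limma, adjusted p = 0.00754). Without all 3 arrays that stood apart it was -0.85 (limma, adjusted p = 0.000354).

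Ogdh encodes the decarboxylase (E1) of the 2-oxoglutarate dehydrogenase complex, another regulated step. Its log2 levels were 12.39, 12.31, 12.21, 12.18 and 12.07 in synaptoneurosome mimic arrays, against 12.35, 12.24, 12.24, 12.25 and 12.38 in homogenate mimic arrays. They were 12.20, 12.33, 12.13, 12.02 and 11.98 in synaptoneurosome control arrays, against 12.20, 12.32, 12.12, 12.11 and 12.32 in homogenate control arrays. The fractions overlapped under both treatments. The difference was -0.06 in mimic rats (95% interval -0.22 to 0.10; limma, adjusted p = 0.547) and -0.08 in control rats (95% interval -0.24 to 0.07; limma, adjusted p = 0.397). The sign was not stable, with 0.04 in mimic rats after quantile normalisation and 0.01 in control rats without the 3 arrays that stood apart. Without those 3 arrays the difference in mimic rats was -0.02. These intervals leave out differences of the size measured for Idh3a or Pdhb, but whether Ogdh differs from the other genes was not tested.

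**Figure D2:**
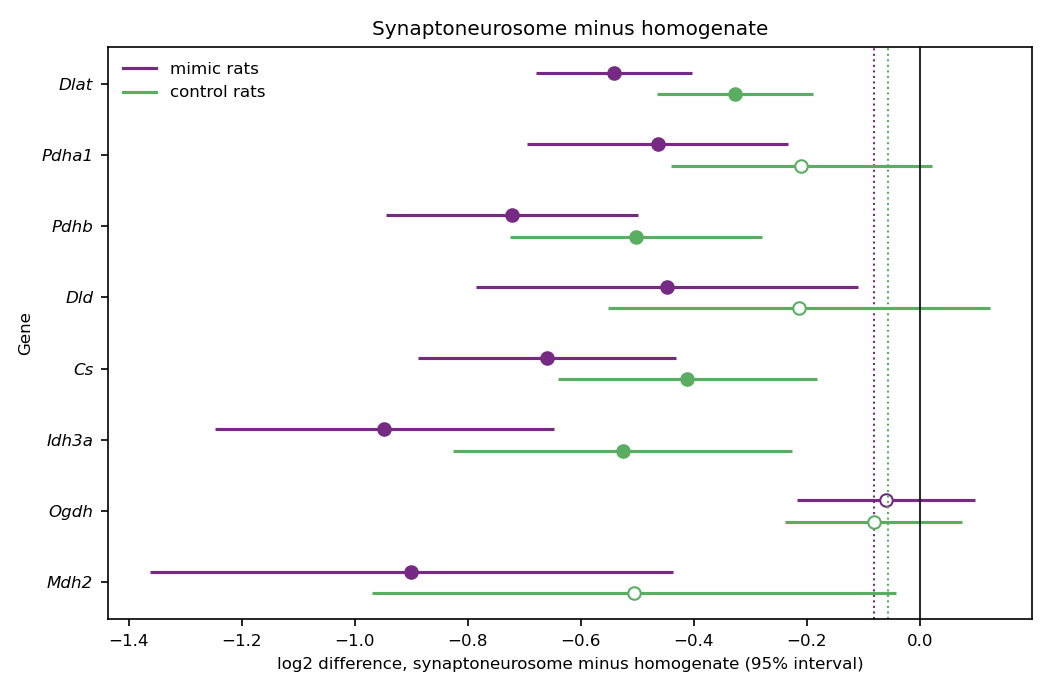
Log2 difference, synaptoneurosome minus homogenate (horizontal axis), of each of the 8 genes in mimic rats (purple) and control rats (green), with 95% intervals from limma (5 against 5 arrays); filled points passed an adjusted p below 0.05 and dotted lines are the medians of all tested genes. In mimic rats all genes but Ogdh are filled, and in control rats Dlat, Pdhb, Cs and Idh3a are.

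The groups did not overlap, with synaptoneurosomes lower, for 7 of the 8 genes in mimic rats, as for 25.4% of all tested genes. In control rats this held for Dlat and Pdhb, 2 of the 8, as for 17.5% of all tested genes. Taking the fractions of the same replicate number as pairs, the synaptoneurosome array was the lower one in 5 of 5 mimic pairs for each gene but Ogdh, where it was in 3 of 5. In control rats it was the lower one in 5 of 5 pairs for Dlat, Pdhb, Cs and Idh3a, in 4 of 5 for Mdh2, Dld and Pdha1, and in 2 of 5 for Ogdh. Pairs were counted for the 8 genes only. The share of all tested genes lower in 5 of 5 pairs is not known here, so these pair counts are a description. Without the 3 arrays that stood apart, 7 genes fell in mimic rats and 5 in control rats, with Mdh2 added. Of all 15465 tested genes, 5480 then fell in mimic rats and 4486 in control rats, against 4756 and 4332 with these arrays. The medians of the 8 genes were then -0.63 in mimic rats and -0.49 in control rats, against -0.08 and -0.05 over all tested genes.

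The 3 arrays that stood apart were not alike for all 8 genes. Mdh2 lay between 12.03 and 12.61 in them, above the 10.90 to 11.80 of the other 7 synaptoneurosome arrays. Cs lay between 11.28 and 11.49, above 10.73 to 11.21. Ogdh lay the other way, between 11.98 and 12.07, below the 12.13 to 12.39 of the other 7. The mean differences of the 3 arrays from the other 7 were 0.85 for Mdh2, 0.49 for Idh3a, 0.36 for Cs, 0.28 for Pdhb, 0.27 for Dld, 0.07 for Dlat, -0.07 for Pdha1 and -0.23 for Ogdh on the log2 scale. Since these arrays were singled out from their values, the differences are a description and carry no test.

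The upstream sequence of Mdh2 and of Ogdh is printed because these genes lay at opposite ends of that ordering and both carry the same word. Promoters, from 250 bases before to 50 bases after the gene start, were matched by symbol in RefSeq (build GRCr8) for 7 of the 8 genes, all but Idh3a. The stretches are written 5′ to 3′ on the strand of the gene. They are chr12:26543842-26543991 for Mdh2 (minus strand, 150 to 1 bases before the start) and chr14:85363881-85363948 for Ogdh (plus strand, 150 to 83 bases before the start). Capitals mark TGACGTCA, the palindromic cAMP response element.
Mdh2: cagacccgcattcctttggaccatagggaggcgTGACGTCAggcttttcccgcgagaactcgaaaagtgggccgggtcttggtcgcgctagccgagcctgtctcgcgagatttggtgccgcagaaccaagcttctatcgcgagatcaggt
Ogdh: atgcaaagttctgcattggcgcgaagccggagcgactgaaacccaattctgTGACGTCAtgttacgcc

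TGACGTCA begins 117 bases before the start of Mdh2 and 99 bases before that of Ogdh, and it was found in 2 of the 7 promoters and in 1.83% of the 33469 promoters of the table. On both strands, GGGCGG, the core of the Sp1 site, was found in 5 of the 7, against 33.1% of all promoters, and CCAAT in 3 of the 7, against 37.5%. CCGGAAG, the core of an ETS-factor site, was found in that of Mdh2 alone, against 8.75% of all promoters. The NRF1 motif, TCAAGGTCA of the oestrogen-related receptors and AAGATGGC of YY1 were in 0 of the 7, against 0.852%, 0.433% and 3.17% of all promoters. A match is a run of letters and not a measured site.

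The question the injection addresses is what added miR-17-5p does to hippocampal RNA, and here no gene passed. By limma, 0 of the 8 genes differed between mimic and control in either fraction at an adjusted p below 0.05, and 0.0% of all tested genes did. At an unadjusted p below 0.05, Dlat alone of the 8 passed in homogenate, where 1.73% of all tested genes did, and none of the 8 passed in synaptoneurosomes, where 3.5% of all tested genes did. Dlat was already known from these homogenate arrays when the genes were chosen, so its difference there is a description. Its levels of 10.92 to 11.18 in homogenate mimic arrays lay above the 10.69 to 10.89 of homogenate control arrays, a log2 difference of 0.27 ± 0.07. Mimic groups lay wholly above control groups in homogenate for 0.491% of all tested genes.

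In homogenate the log2 differences, mimic minus control, were 0.20 ± 0.11 for Cs, 0.15 ± 0.14 for Idh3a, 0.15 ± 0.11 for Pdha1, 0.10 ± 0.16 for Dld, 0.09 ± 0.11 for Pdhb, 0.08 ± 0.07 for Ogdh and 0.07 ± 0.22 for Mdh2. The groups of these 7 genes overlapped. The median of the 8 genes was 0.12, against 0.02 over all tested genes and 0.04 over those at least as bright as the dimmest of the 8. Homogenate mimic 4 held the highest level of its group for Pdha1, Pdhb, Dld, Cs, Idh3a and Mdh2. Its mean of 8 microglial markers was 8.68, against 8.22 to 8.35 in the other homogenate mimic arrays. It was also the highest of its group for astrocyte (11.828), mural and fibroblast (8.375) and endothelial (8.369) markers. For excitatory neuron, interneuron, oligodendrocyte and choroid plexus markers it was not the highest. The part of these marker differences in the values was not tested.

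In synaptoneurosomes the log2 differences, mimic minus control, were -0.33 ± 0.22 for Mdh2, -0.27 ± 0.14 for Idh3a, -0.14 ± 0.16 for Dld, -0.13 ± 0.11 for Pdhb, -0.11 ± 0.11 for Pdha1 and -0.05 ± 0.11 for Cs. They were 0.06 ± 0.07 for Dlat and 0.10 ± 0.07 for Ogdh. All 8 genes overlapped between the groups, where 0.181% of all tested genes lay wholly higher and 0.136% wholly lower in mimic arrays, with adjusted p between 0.933 and 0.949 in limma. Without the 3 arrays that stood apart, 2 of which are control arrays, most of these values shrank, to -0.13 for Mdh2, -0.08 for Idh3a, -0.02 for Dld, -0.05 for Pdhb, -0.07 for Pdha1 and 0.05 for Ogdh. Cs turned to 0.06 and Dlat was 0.14. Other settings enlarged some values: over all settings run, Mdh2 ranged from -0.55 to -0.12 and Idh3a from -0.38 to -0.08, and neither passed. Without synaptoneurosome mimic 5 alone, 2340 of all tested genes had an unadjusted p below 0.05 in limma, against 542 with it. After adjustment 0 passed in either case. The median of the 8 genes was -0.12 with these arrays and -0.03 without them. The mean levels beneath the value for Mdh2 were 11.48 ± 0.35 in mimic arrays and 11.80 ± 0.62 in control arrays (SD, n = 5 each), so the difference was smaller than the spread in either group.

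**Figure D3:**
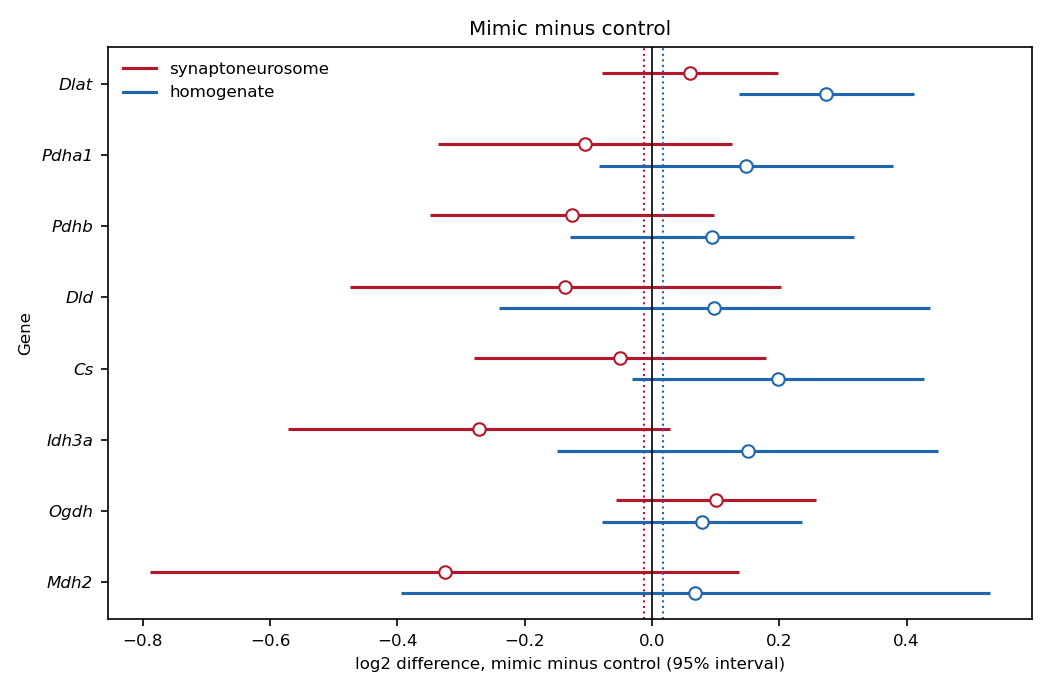
Log2 difference, mimic minus control (horizontal axis), of each of the 8 genes in synaptoneurosomes (red) and homogenate (blue), with 95% intervals from limma (5 against 5 arrays); open points did not pass an adjusted p below 0.05 and dotted lines are the medians of all tested genes. No point is filled; the intervals cross 0 for all genes but Dlat in homogenate, at 0.27.

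The fraction difference in mimic rats and that in control rats share no arrays, and they were compared by testing how far the mimic effect in synaptoneurosomes exceeded that in homogenate. By limma, 0 of the 8 genes passed an adjusted p below 0.05 in that test (adjusted p = 0.998 for each), as did 0.0% of all tested genes. At an unadjusted p below 0.05, none of the 8 but Dlat passed, where 1.57% of all tested genes did, and the value of Dlat is a description, since it contains the homogenate difference already known. The log2 values were -0.42 ± 0.20 for Idh3a, -0.39 ± 0.31 for Mdh2, -0.25 ± 0.16 for Pdha1 and -0.25 ± 0.15 for Cs. They were -0.23 ± 0.23 for Dld, -0.22 ± 0.15 for Pdhb, -0.21 ± 0.09 for Dlat and 0.02 ± 0.11 for Ogdh. Without the 3 arrays that stood apart they were -0.23 for Idh3a, -0.20 for Mdh2, -0.22 for Pdha1 and -0.14 for Cs. For the other genes they were then -0.12 for Dld, -0.15 for Pdhb, -0.14 for Dlat and -0.03 for Ogdh, and the median of the 8 was -0.14, against -0.24 with these arrays. The larger number of genes that fell in mimic rats was therefore not shown to differ from that in control rats.

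The arrays spread unequally around their group means. The median SD of the 8 genes was 0.14 in synaptoneurosome mimic, 0.27 in synaptoneurosome control, 0.14 in homogenate mimic and 0.09 in homogenate control, while over all tested genes it was 0.17 in synaptoneurosome mimic, 0.22 in synaptoneurosome control, 0.11 in homogenate mimic and 0.12 in homogenate control. With group means removed, the 21 pairs among the 7 genes other than Ogdh correlated over the 20 arrays between 0.08 and 0.90, with a median of 0.60. The 7 pairs with Ogdh lay between -0.33 and 0.34, with a median of -0.15. Over the 10 homogenate arrays alone, the pairs with Ogdh had a median of 0.27. The points share arrays, including the 3 that stood apart, and these correlations are a description.

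The genes most like the mean profile of the 8 over the 20 arrays were Sars1 (Pearson r = 0.988), Wdr77 (0.982), Cct2 (0.982), Psmd12 (0.980) and Mrps27 (0.978), where 99% of genes had an r below 0.942. Sars1 encodes the cytosolic seryl-tRNA synthetase, Cct2 a subunit of the TRiC chaperonin, Psmd12 a subunit of the proteasome cap and Mrps27 a protein of the mitochondrial ribosome. With group means removed, the closest were Cct2 (0.979), Sars1 (0.977), Psmd12 (0.953), Psmd1 (0.950) and Cct5 (0.949), so that 3 of the 5 names were shared.

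The lists that follow are genes of neighbouring steps. As deposited, 30.8% of all tested genes fell in mimic rats and 28.0% in control rats, and the list counts are to be read against these shares. After quantile normalisation, 2938 of the 15465 tested genes fell and 2077 rose in mimic rats, and 2472 fell and 2420 rose in control rats. Without the 3 arrays that stood apart, 5480 fell and 2485 rose in mimic rats, and 4486 fell and 2288 rose in control rats. List counts in those settings are to be read against these numbers. Of 14 further genes of the complex and the cycle, 13 were tested, and in synaptoneurosomes relative to homogenate 8 fell and 1 rose in mimic rats, with a median log2 difference of -0.53, and 6 fell and 1 rose in control rats, with a median of -0.28. After quantile normalisation 4 fell in control rats, and without the 3 arrays that stood apart 8 fell and 2 rose there. Idh3g, the γ subunit of isocitrate dehydrogenase, fell by 1.17 ± 0.12 in mimic rats (limma, adjusted p = 4.86e-07) and by 0.85 ± 0.12 in control rats (limma, adjusted p = 1.76e-05). Suclg1, the α subunit of succinyl-CoA ligase, fell by 1.01 ± 0.10 in mimic rats and by 0.85 ± 0.10 in control rats. Suclg2, the β subunit of the form of that enzyme that uses GDP, rose by 0.80 ± 0.25 in mimic rats (limma, adjusted p = 0.0155) and by 0.79 ± 0.25 in control rats (limma, adjusted p = 0.0182), where it was 1.21 without the 3 arrays that stood apart. Sdhb, the iron-sulphur subunit of succinate dehydrogenase, fell by 0.65 ± 0.10 in mimic rats and by 0.43 ± 0.10 in control rats. Its call in control rats was lost after quantile normalisation (-0.25, limma, adjusted p = 0.0582). Dlst, the acyltransferase core of the 2-oxoglutarate dehydrogenase complex, fell by 0.51 ± 0.08 in control rats (limma, adjusted p = 4.02e-05). In mimic rats it fell by 0.49 ± 0.08 (limma, adjusted p = 4.21e-05), while Ogdh of the same complex passed under neither treatment.

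The kinases that phosphorylate and switch off pyruvate dehydrogenase did not move together. Pdk2 fell by 0.80 ± 0.10 in mimic rats (limma, adjusted p = 7.98e-06) and by 0.66 ± 0.10 in control rats (limma, adjusted p = 6.94e-05). Pdk4 rose by 0.31 ± 0.09 in mimic rats (limma, adjusted p = 0.0126) and by 0.33 ± 0.09 in control rats (limma, adjusted p = 0.00956). Pdk1 rose by 0.51 ± 0.19 in mimic rats (limma, adjusted p = 0.0361), and in control rats its difference was 0.46 ± 0.19 (limma, adjusted p = 0.0632), or 0.76 without the 3 arrays that stood apart (limma, adjusted p = 0.000293). Its call in mimic rats was lost after centring arrays on their medians (limma, adjusted p = 0.0591). Pdk3 had differences of -0.17 ± 0.08 in mimic rats and -0.04 ± 0.08 in control rats, and passed in neither, though in mimic rats it passed at -0.19 without the 3 arrays that stood apart (limma, adjusted p = 0.0378). Of the phosphatase genes, which reverse that step, Pdp1 fell by 0.23 ± 0.06 in mimic rats (limma, adjusted p = 0.00507), with -0.14 ± 0.06 in control rats, and after quantile normalisation its values were -0.04 in mimic rats (limma, adjusted p = 0.697) and 0.01 in control rats. Without the 3 arrays that stood apart it passed in control rats at -0.18 (limma, adjusted p = 0.025). Pdp2 and the regulatory subunit gene Pdpr passed in neither, with differences between 0.05 and 0.11. Both passed in mimic rats after quantile normalisation, at 0.24 for Pdp2 and 0.29 for Pdpr, and Pdp2 then passed in control rats too, at 0.23. Without the 3 arrays Pdpr passed under both treatments, at 0.19 in mimic rats and 0.25 in control rats. Over the 7 genes as deposited, 2 rose and 2 fell in mimic rats, and 1 rose and 1 fell in control rats. After quantile normalisation 4 rose and 1 fell in mimic rats, and 3 rose and 1 fell in control rats. Of all 15465 tested genes, 2077 then rose in mimic rats and 2420 in control rats, against 1697 and 1818 as deposited. Without the 3 arrays that stood apart, 3 of the 7 rose and 3 fell in mimic rats, and 3 rose and 2 fell in control rats.

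Genes of pyruvate entry, carbon refilling and the mitochondrial shuttles, 21 tested, fell in 12 cases in mimic rats and 6 in control rats, the second share close to that of all tested genes, and none rose. After quantile normalisation 8 fell in mimic rats, and 4 fell and 2 rose in control rats. Without the 3 arrays that stood apart 12 fell and 1 rose in mimic rats, and 10 fell and 1 rose in control rats. Got1, the cytosolic aspartate aminotransferase, had log2 differences of -1.38 ± 0.21 in mimic rats and -1.24 ± 0.21 in control rats, and both passed. Got2, its mitochondrial partner, had -1.14 ± 0.21 in mimic rats and -0.95 ± 0.21 in control rats, and both passed. Slc25a22, a mitochondrial glutamate carrier, fell by 0.98 ± 0.14 in mimic rats and by 0.84 ± 0.14 in control rats. Of 4 genes that make lipoic acid, the cofactor of E2, Mcat fell, by 0.19 ± 0.06 in mimic rats and 0.23 ± 0.06 in control rats, a share near that of all tested genes. After quantile normalisation none of the 4 passed under either treatment, and without the 3 arrays that stood apart 2 fell in mimic rats.

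Upstream of pyruvate, 12 of 14 glycolysis genes fell in mimic rats, with a median of -0.78, and 11 fell in control rats, with a median of -0.55. After quantile normalisation 9 fell in mimic rats and 5 in control rats, with medians of -0.64 and -0.42. Without the 3 arrays that stood apart 13 fell in mimic rats, and 13 fell and 1 rose in control rats. Pgam1 (phosphoglycerate mutase), Eno2 (the neuronal enolase) and Aldoa (an aldolase) were the strongest by test in both, but Eno2 in control rats did not pass after quantile normalisation (difference -0.68; limma, adjusted p = 0.185). Downstream, 36 of 48 respiratory chain and ATP synthase genes fell in mimic rats, with a median of -0.61. In control rats 20 fell, with a median of -0.36, and Cox6a1, a cytochrome c oxidase subunit, rose by 1.19 ± 0.38 (limma, adjusted p = 0.0192). Ndufa5, Atp5f1b and Cyc1, of complex I, ATP synthase and complex III, were the strongest by test among those that fell, but Atp5f1b in control rats did not pass after quantile normalisation (difference -0.40; limma, adjusted p = 0.0723). That setting left 23 genes of this list lower in mimic rats and 11 in control rats, and leaving out the 3 arrays that stood apart gave 43 in mimic rats and 30 in control rats. Between mimic and control, none of the genes in these lists passed in either fraction.

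**Figure D4:**
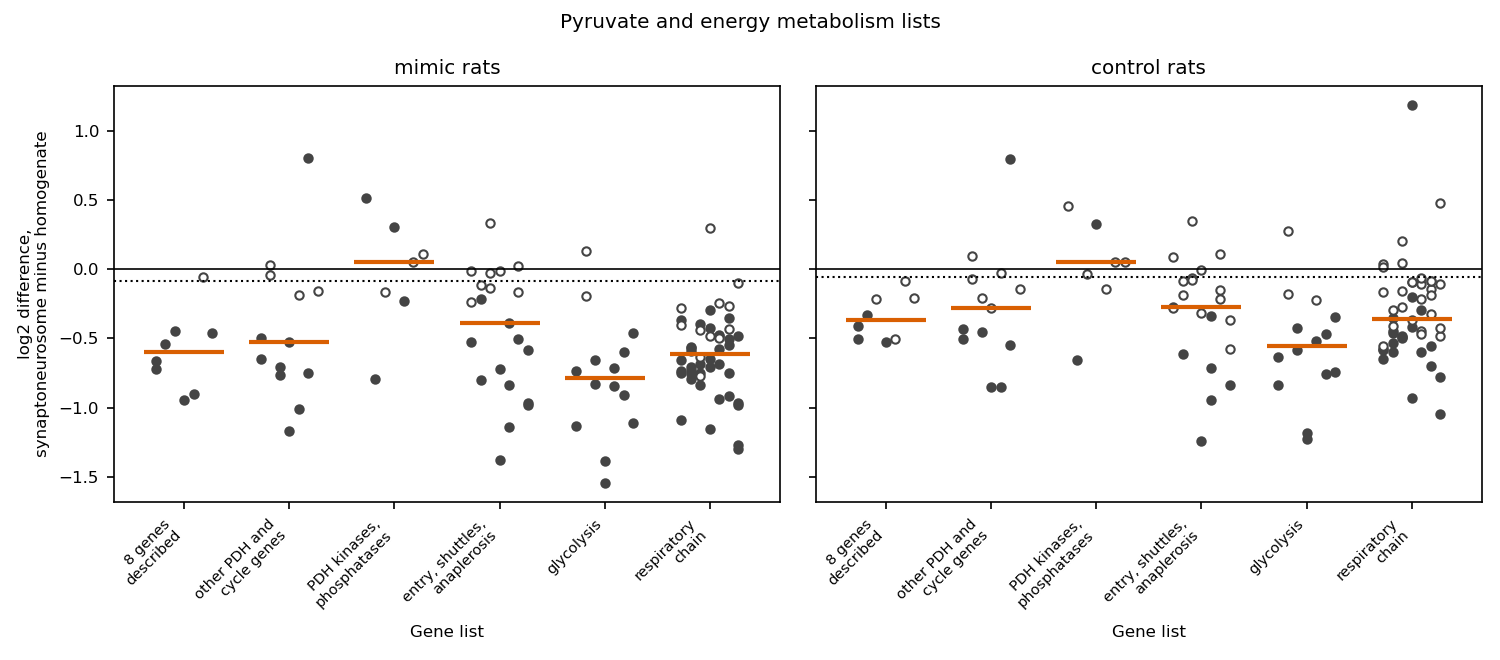
Log2 difference, synaptoneurosome minus homogenate (vertical axis), of each tested gene in 6 lists (horizontal axis), in mimic rats (left) and control rats (right); filled points passed a limma adjusted p below 0.05, orange bars are list medians and the dotted line is the median of all tested genes. Medians of the 8 genes (-0.60 and -0.37) and of the glycolysis list (-0.78 and -0.55) lie below 0, while those of the kinases and phosphatases are 0.05 in both as deposited, 0.24 and 0.20 after quantile normalisation, and -0.01 and 0.03 after centring on array medians.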

How the data were processed

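The authors deposited 1 table of log2 expression values, 1 column per array, for which the submitters' processing notes name RMA and Transcriptome Analysis Console, with no version in the sources used here. RMA by design equalises the arrays and compresses differences of dim genes, but the deposited arrays did not share one distribution (medians 5.11 to 5.26). Of 68842 probe sets, 23446 had 1 gene symbol in the platform annotation, 505 several, and 44891 are unnamed here; 22077 were matched by gene number and 1 symbol was updated. The brightest probe set stood for a gene, and the lowest 30% of 22093 genes by mean (log2 below 4.97) were left out. Groups came from the sample titles.

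limma 3.58.1 (R 4.3.3) was fitted to 15465 genes with 4 group means (16 residual degrees of freedom, 2.56 prior), p-values were adjusted by Benjamini-Hochberg over the whole set, and the script was tested on simulated data. The number of arrays limits the precision. The named genes were the 9 chosen names, the 3 called genes with the largest statistic per direction in each pathway list, all kinase and phosphatase genes, and the 5 genes most like the members' mean profile. The members and lists were chosen with earlier results of these data known.

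Alternatives were quantile and median scaling, other filters, array weights, replicate blocks and leaving out each array. Same-numbered synaptoneurosome and homogenate arrays of a treatment deviated together in all 10 pairs (r = 0.102 to 0.476). The numbers were therefore taken to pair the fractions. Same-numbered mimic and control arrays also deviated together, above an r of 0.1, in 6 of 10 pairs (r = -0.305 to 0.828). In synaptoneurosomes these values were 0.554, 0.589, 0.524 and 0.828 for numbers 1, 2, 3 and 5, and -0.305 for number 4. What arrays of a number share across treatments was not tested. With the number as a fixed term, 0 genes passed between mimic and control in either fraction.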

Additional observations from a re-analysis of the deposited data

Results flagged for a closer look

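Dld in homogenate mimic 4, at a log2 level of 10.81, lay far from the other 4 arrays of its group, which reached 10.29. The gap was 0.765 of the range of the group, above Dixon's critical value of 0.71 for 5 samples. It was the only such case among 32 groups of 5 arrays, where chance gives about 1 in 20.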

How the results depend on the processing

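The number of the 8 genes called was within 1.5 times its value under every alternative run: leaving out each array in turn gave 6 to 7 of the 8 genes in mimic rats and 4 to 5 in control rats for synaptoneurosome against homogenate, and 0 for mimic against control in both fractions and for the difference between fractions. With the replicate block that pairs the fractions, 7 genes fell in mimic rats and 5 in control rats, with Mdh2 in control rats at -0.51 (limma, adjusted p = 0.0331). Of all 15465 tested genes, 5108 fell in mimic rats and 4691 in control rats with that block, against 4756 and 4332 without it. Mdh2 in control rats also passed with array weights (-0.78, adjusted p = 0.00146), and Dld in mimic rats was lost as given above. No called value changed sign. Quantile normalisation left 6 of the 8 genes called in mimic rats and 4 in control rats, with medians of -0.50 and -0.30 for the 8 genes, and lowered the genes that fell over the whole array to 2938 in mimic rats and 2472 in control rats, against 4756 and 4332, and raised the share of all calls that were higher to 41.4% and 49.5%, against 26.3% and 29.6%; it was 15.7% and 23.0% after centring on array medians. A common spread was fitted although synaptoneurosome arrays varied more.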
